A study of Homo sapiens with 4 samples.

Results

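The histone and arginine methylation enzymes are the genes whose products write or erase methyl groups on lysine and arginine residues of histones and other proteins. They were chosen by gene symbol alone: the KDM demethylases apart from KDM5D, the SETD, SUV39H, SUV420H, EHMT, KMT2, NSD, WHSC1, EZH and SMYD families of SET domain proteins, DOT1L, ASH1L and the PRMT arginine methyltransferases. The rule found 59 genes among 19826 in the table, and no measured value entered the choice.

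All 4 libraries came from BE(2)C, a human neuroblastoma cell line, in a version that carries a MYCN open reading frame, so the introduced reading frame was present in every group. The groups were an siRNA against MYCN with a let-7a miRNA mimic, siMYCN with the control mimic miRCon, the control siRNA (siCon) with let-7a, and siCon with miRCon, each harvested 48 hours after transfection and each represented by 1 library of polyA RNA. No group had a replicate, so a difference between 2 libraries has no replicate check. Each treatment could be seen in 2 pairs of libraries that share no library: siMYCN over siCon once with each mimic, and let-7a over miRCon once with each siRNA.

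Lysine methyltransferases mostly use a SET domain to move a methyl group from S-adenosylmethionine to a histone lysine, and DOT1L does so with another fold. Methylation of H3K4 and H3K36 marks transcribed genes, and methylation of H3K9, H3K27 and H4K20 is found in repressed chromatin. KDM1 enzymes remove methyl groups by an amine oxidase reaction, and the other KDM enzymes by an iron-dependent Jumonji domain. In neuroblastoma these enzymes have been studied chiefly around EZH2, which writes H3K27 methylation, KDM1A, and the arginine methyltransferases PRMT1 and PRMT5, which have been linked to the stability of the MYCN protein.

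The let-7a mimic acts through the seed of the miRNA, so the seed and the stretches of the members' 3' UTRs that match it are shown first. In the RefSeq sequence of hsa-let-7a-5p (GRCh38.p14, chr9:94175962-94175983, plus strand, gene MIRLET7A1), the capitals mark the seed, bases 2 to 8.
hsa-let-7a-5p: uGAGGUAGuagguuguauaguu
A 7mer-m8 site pairs with the seed (CTACCTC), an 8mer site is that word followed by A (CTACCTCA), and a 7mer-A1 site is TACCTCA without the first C. In the longest annotated 3' UTR of each gene (GENCODE 29 transcripts), 7 of the 48 members with a mean level of at least 5 held such a site (14.6%), against 18.9% of 9178 tested genes. The windows below end at the base opposite position 1 of the miRNA, with the match in capitals, and run along the gene's own strand.
KMT2D, 8mer, chr12:49021099-49021128, minus strand: caaggagaccccgcacccacacCTACCTCA
DOT1L, 8mer, chr19:2229785-2229805, plus strand: gtaactaggatttCTACCTCA
EZH2, 7mer-m8, chr7:148807632-148807661, minus strand: aatggaaatcccttgacatctgCTACCTCc
EZH1, 7mer-m8, chr17:42701977-42702006, minus strand: cagaggtagacaggtcaccttaCTACCTCc
PRMT6, 7mer-m8, chr1:107057841-107057870, plus strand: tgagcgttgccttttctcccagCTACCTCc
ASH1L, 7mer-m8, chr1:155337049-155337078, minus strand: acttgtaactgctgccccctccCTACCTCt
NSD1, 7mer-m8, chr5:177299512-177299541, plus strand: ctcagctcccttctgcccctctCTACCTCt
KDM2B, 7mer-A1, chr12:121429586-121429615, minus strand: ctggaagttgagagtctgctttgTACCTCA
KDM3A, 7mer-A1, chr2:86492178-86492207, plus strand: cctgtggactttgagattcatgtTACCTCA
Coordinates are on GRCh38. The matches of DOT1L, EZH2 and PRMT6 start at bases 6, 7 and 20 of the 3' UTR, so the windows of all 3 begin before it. Those of DOT1L and EZH2 begin in coding sequence and that of PRMT6 at the stop codon. The window of DOT1L is shortened to 21 bases at an exon junction. KDM6A held 2 further 8mer matches in the longest annotated 3' UTR, and 0 in the 3' UTR of its longest coding sequence. A match is a description of these letters and not evidence that the miRNA acts there.

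The values are called TPM-like here: natural logs in the deposited table were turned back, and each library then summed to between 855811 and 862049. Levels of different genes are set side by side below on the reading that these values are per transcript length. Read depth is unknown, so no counting error can be given. The siRNA's target, MYCN, had 1197 and 1238 TPM-like units in the siMYCN libraries with let-7a and with miRCon, against 1433 and 1449 in the siCon libraries with let-7a and with miRCon, a change of -16.4% and -14.5%, and its gene-level value may mix the introduced reading frame with the cells' own gene. LIN28B, an established let-7 target, changed with the let-7a mimic by -1.08 (siMYCN) and -0.70 (siCon) on the log2 scale. All 9 neuroblastoma markers used (such as HAND2, GATA3 and DBH) had a mean of at least 5, with a summed level of 4799 and 2451 in the siMYCN libraries with let-7a and with miRCon, against 3055 and 2665 in the siCon libraries with let-7a and with miRCon. None of 5 epithelial and 5 blood markers had a mean of 5 (0 of 5 in each list). CDH1, KRT5, KRT14 and HBB were at 0 in every library and PTPRC did not exceed 0.219, and the summed levels were 3.14 to 7.77 for the epithelial and 3.01 to 3.40 for the blood list. Of 5 fibroblast markers 4 had a mean of at least 5 (COL1A2 was near 0), and the summed level was 155 and 198 in the siMYCN libraries with let-7a and with miRCon, against 152 and 181 in the siCon libraries with let-7a and with miRCon. Mitochondrially encoded transcripts made up 29.3% and 28.4% of the siMYCN libraries with let-7a and with miRCon, against 32.1% and 31.6% of the siCon libraries with let-7a and with miRCon, and the part of this difference in the siMYCN effects below was measured by the rescaling given in the closing section. In bulk RNA, fewer cells of a type and less RNA per cell cannot be told apart.

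Most of the enzymes were expressed. The limit for testing was a mean level of 5, which 48 of 59 members reached (81.4%), against 47.0% of all genes, and 31 had at least 20. KDM1A, the H3K4 demethylase LSD1, had the highest level of the 59, at 177 and 172 in the siMYCN libraries with let-7a and with miRCon, against 163 and 158 in the siCon libraries with let-7a and with miRCon. It was followed by KMT2D, an H3K4 methyltransferase of enhancers, with a mean of 96.9, the arginine methyltransferase PRMT6 with 96.5, PRMT1, the main source of asymmetric dimethylarginine, with 74.1, and the H3K79 methyltransferase DOT1L with 70.8. KMT2D and PRMT6 differ by less than the range of either over the 4 libraries, so their order is not resolved. Among the H3K9 methyltransferases EHMT1 led with 45.7, and its partner EHMT2 was listed at 0.158 or less in every library. WHSC1L1, an H3K36 methyltransferase also called NSD3, had 60.9, SETD3, an actin histidine methyltransferase, 66.6, and KDM5C, an X-linked H3K4 demethylase, 51.6. KDM2B with 39.2 and the H3K9 demethylase KDM3B with 39.1 led their classes of demethylases. Strand was not stated for the libraries, so for the 28 members that overlap a gene on the other strand, reads of the partner cannot be told apart. These are KDM1A, KMT2A, KMT2B, KMT2D, KMT2E, DOT1L, EHMT1, EHMT2, WHSC1L1, ASH1L, SETD7, SMYD3, SMYD4, SETD4, SETD5, SETD6, SETD9, SUV39H1, SUV39H2, PRMT1, PRMT5, PRMT7, PRMT8, PRMT9, KDM2B, KDM4A, KDM5A and KDM8.

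The 11 members under a mean of 5 were PRMT9, EZH2, SETD9, KDM6A, KDM8, KDM3A, KDM4D, EHMT2, SMYD1, KDM4E and PRMT8. KDM4E and PRMT8, a brain arginine methyltransferase, were at 0 in every library, and SMYD1, a muscle protein, did not exceed 0.0757. Just inside the limit were SUV420H2 with a mean of 5.38 and KDM7A with 6.59, and just outside it were PRMT9 with 4.41 and EZH2 with 3.77. SUV420H2 reached the limit through its siCon libraries. Both siMYCN values were below 5.

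**Figure D1:**
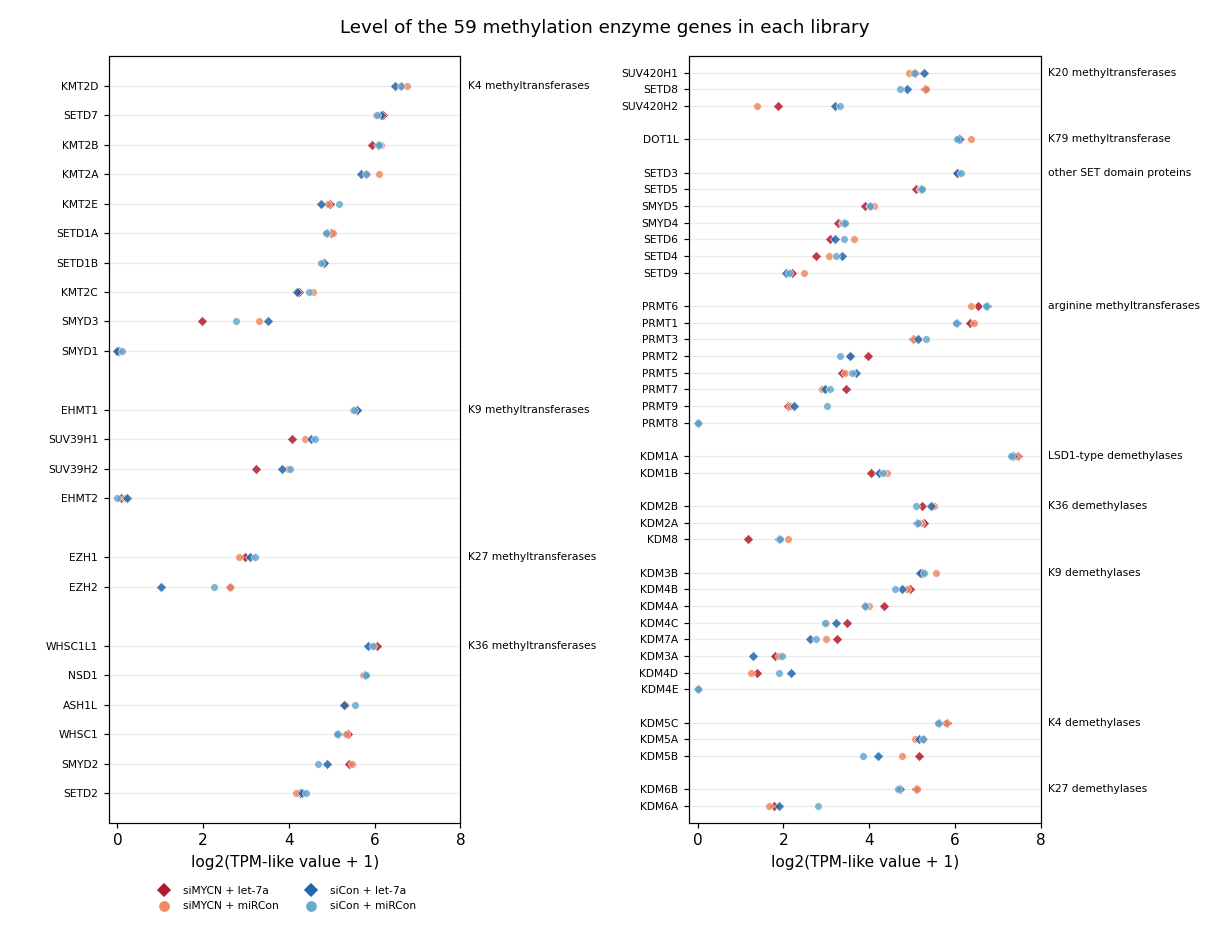
Level of each of the 59 genes in each library, as log2(TPM-like value + 1) on the horizontal axis, with genes in rows grouped by the residue their products act on, where each point is 1 library. KDM1A lies furthest right, and the points of SUV420H2, SMYD3, EZH2 and KDM5B are spread most widely among genes with a level above 0.

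With siMYCN, the H3K4 demethylase KDM5B rose. The H4K20 methyltransferase SUV420H2 had lower values, but it reached the limit for testing only through its siCon libraries, so its difference is given as a description and not as a call. A rule of size, at least 1.5-fold in the same direction in both pairs on the log2(value + 1) scale, was met by 1 of 48 tested members upward (KDM5B) and 1 downward (SUV420H2). Of all 9324 tested genes it was met by 2.85% upward and 1.61% downward, so the members' share of 2.08% upward is near the background, and nothing is read from the downward one. Limma's additive test, at a Benjamini-Hochberg adjusted p under 0.05, called the same member upward and the same member downward, the second with the limit just named. Of all tested genes it called 2.07% upward and 1.36% downward (193 and 127 genes, and 342 and 408 after rescaling by median ratios). That test sets each treatment against the departure from additivity among the 4 libraries, moderated over all genes, with 1 residual degree of freedom.

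KDM5B, which removes H3K4 di- and trimethylation at promoters, had 34.9 and 26.3 TPM-like units in the siMYCN libraries with let-7a and with miRCon, against 17.6 and 13.6 in the siCon libraries with let-7a and with miRCon. Both siMYCN values lay above both siCon values, and within each siRNA the let-7a library was the higher one. The siMYCN log2 fold change was 0.95 with let-7a and 0.90 with miRCon, and 0.93 ± 0.13 over both pairs (SE of the additive limma model, adjusted p = 0.0365). The let-7a log2 fold change was 0.39 with siMYCN and 0.35 with siCon, and 0.37 ± 0.13 over both pairs (limma adjusted p = 0.663). KDM5B was the only tested member at least 2-fold higher with both treatments than with neither, at a log2 fold change of 1.30, where 1.96% of all tested genes were. Its longest 3' UTR held 0 let-7a seed sites. In GRCh38, KDM5B spans chr1:202724495-202809470 (minus strand). Its paralogs did not share the pattern of values: KDM5C had siMYCN log2 fold changes of 0.19 with let-7a and 0.18 with miRCon, and KDM5A 0.098 and -0.17. Whether KDM5B differed from them was not tested. The KDM5B call rests on the setting: its limma adjusted p was 0.369 with no filter on low values and 0.129 without a trend, and under each of these 0 genes of the whole table passed.

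SUV420H2, also called KMT5C, writes the higher H4K20 methylation of heterochromatin. It had 2.70 and 1.62 TPM-like units in the siMYCN libraries with let-7a and with miRCon, against 8.21 and 8.99 in the siCon libraries with let-7a and with miRCon. The groups did not overlap, and all 4 values are low. The siMYCN log2 fold change was -1.32 with let-7a and -1.93 with miRCon, and -1.62 ± 0.27 over both pairs (SE of the additive model). No p is read for it, since the choice of genes by mean level and the difference are tied here. With both treatments against neither the log2 fold change was -1.43, and 1.46% of all tested genes were at least 2-fold lower in that comparison. Its level was the lowest of the tested members, and among genes with a mean from 5 to 10 the rule of size called 2.63% lower. The 2 pairs of such genes differed by a median of 0.31 on the log2 scale, against 0.62 between the pairs of SUV420H2. In GRCh38 it spans chr19:55339853-55348120 (plus strand), and no other annotated gene of the protein-coding and long noncoding types searched overlaps it. Pseudogenes and small RNA genes were not searched for overlap. With a pseudocount of 0.1 its log2 fold change was -1.99, and with a pseudocount of 5 it was -0.93.

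SETD8 and SUV420H1, the other H4K20 enzymes, did not pass limma's threshold, and no p is read for SUV420H2. SETD8, the monomethyltransferase KMT5A, which supplies the substrate of the SUV420H enzymes, had 38.4 and 39.0 TPM-like units in the siMYCN libraries with let-7a and with miRCon, against 28.3 and 25.2 in the siCon libraries with let-7a and with miRCon. All siMYCN values were higher, with a log2 fold change of 0.52 ± 0.12 (SE of the limma model) and an adjusted p of 0.0714 in limma. Processed copies of this gene are annotated (KMT5AP1, KMT5AP2 and KMT5AP3), and reads shared with them may have been divided in a way that gene-level values do not show. SUV420H1, the paralog of SUV420H2, had 32.7 and 29.6 in the siMYCN libraries with let-7a and with miRCon, against 38.0 and 32.2 in the siCon libraries with let-7a and with miRCon, groups that overlap. Summed over the 3 genes, the level was 73.8 and 70.2 in the siMYCN libraries with let-7a and with miRCon, against 74.5 and 66.4 in the siCon libraries with let-7a and with miRCon.

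**Figure D2:**
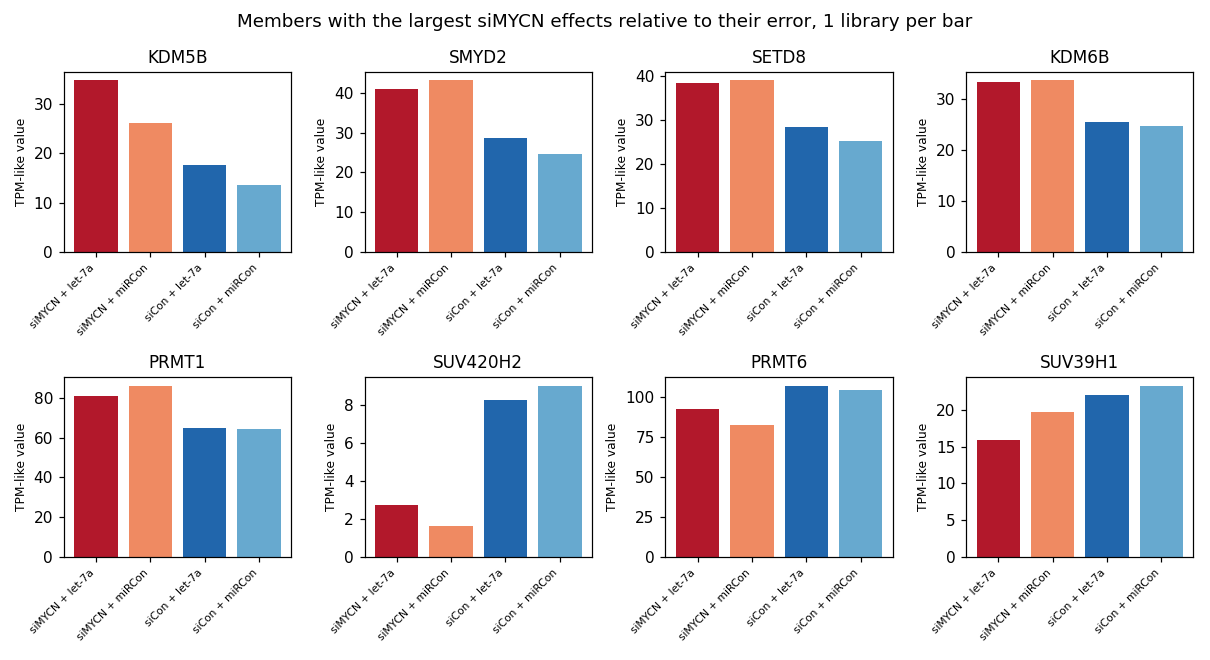
TPM-like value of 8 members in each library, 1 bar per library and no error bars because there are no replicates; these are the 8 members with the smallest unadjusted limma p for siMYCN. KDM5B is highest with siMYCN and let-7a at 34.9 and lowest with siCon and miRCon at 13.6, and SUV420H2 is below 3 in both siMYCN libraries and above 8 in both siCon libraries.

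SMYD2, which methylates H3K36 and proteins such as p53, came closest to the threshold. It had 41.1 and 43.1 TPM-like units in the siMYCN libraries with let-7a and with miRCon, against 28.6 and 24.7 in the siCon libraries with let-7a and with miRCon, and these did not overlap. Its log2 fold change was 0.64 ± 0.12 (limma SE, adjusted p = 0.0581), and it passed limma at a mean of at least 20 (adjusted p = 0.0438) and with libraries rescaled by median ratios (adjusted p = 0.0386). PRMT1 had 80.9 and 86.2 in the siMYCN libraries with let-7a and with miRCon, against 65.1 and 64.2 in the siCon libraries with let-7a and with miRCon, a log2 fold change of 0.36 ± 0.088 with an adjusted p of 0.0793 in limma. An annotated pseudogene (PRMT1P1) and overlapping gene models leave its value uncertain to that extent. KDM6B, the H3K27 demethylase JMJD3, had 33.3 and 33.6 in the siMYCN libraries with let-7a and with miRCon, against 25.4 and 24.7 in the siCon libraries with let-7a and with miRCon. That is a log2 fold change of 0.40 ± 0.11 (limma adjusted p = 0.106). At a lower limit of 25% up in both pairs, 4 members were higher (KDM5B, SMYD2, SETD8 and KDM6B), where 10.7% of all tested genes were. At the matching limit of 20% down, 1 member was lower (SUV420H2), where 5.79% were. Nothing is read from that count, because SUV420H2 was tested only through its siCon libraries.

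Of the tested H3K9 methyltransferases 3 of 3 were below 0 with siMYCN over both pairs, where 41.7% of all tested genes were. EHMT1 was at 0.0068 with let-7a and -0.027 with miRCon, so its sign differed between the pairs. Of the tested arginine methyltransferases 3 were below 0 and 3 above. No tested member of either class passed limma's threshold. PRMT6, which places repressive arginine methylation on histone H3, had 92.2 and 82.2 TPM-like units in the siMYCN libraries with let-7a and with miRCon, against 107 and 104 in the siCon libraries with let-7a and with miRCon. Its log2 fold change was -0.28 ± 0.083 (limma adjusted p = 0.118). SUV39H1, the H3K9 methyltransferase of pericentric heterochromatin, had 15.9 and 19.7 in the siMYCN libraries with let-7a and with miRCon, against 22.0 and 23.3 in the siCon libraries with let-7a and with miRCon, a log2 fold change of -0.34 ± 0.14 (limma adjusted p = 0.196). Both sets of values were separate, with both siMYCN libraries below both siCon libraries. Its paralog SUV39H2 had 8.42 and 14.9 in the siMYCN libraries with let-7a and with miRCon, against 13.2 and 15.2 in the siCon libraries with let-7a and with miRCon, so that only the library with both treatments stood apart. PRMT5, the source of symmetric dimethylarginine, had a log2 fold change of -0.25 ± 0.17 and the SET domain protein SETD4 -0.39 ± 0.21 (limma adjusted p = 0.395 and 0.301).

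Across the 48 tested enzymes, 26 had a siMYCN effect above 0 over both pairs, against 58.3% of all tested genes, and 22 below 0, against 41.7%. Counting both pairs separately, 20 were above 0 in each, against 43.2% of all tested genes, and 12 below 0 in each, against 27.4%. The siMYCN and siCon libraries did not overlap for 14 members upward and 10 downward, or 29.2% and 20.8%, against 35.6% and 21.1% of all tested genes. The median effect was 0.041, against 0.056 over all tested genes. At an unadjusted p under 0.05 in limma, 5 members were higher (KDM5B, SMYD2, SETD8, PRMT1 and KDM6B), where 17% of all tested genes were, and 2 were lower (SUV420H2 and PRMT6), where 9.4% were. SUV420H2 is in the lower count only because its siCon libraries took it past the limit for testing, so nothing is read from its place there. Of the tested demethylases 11 of 13 had a siMYCN effect above 0, with a median of 0.17. Of the tested methyltransferases and related SET domain proteins 15 of 35 did, with a median of -0.016. After rescaling by median ratios these counts were 11 of 13 and 12 of 35. Without mitochondrial transcripts they were 11 of 13 and 13 of 35. The let-7a effects split in the same way, with 11 of 13 and 15 of 35 above 0, against 42.3% of all tested genes. Their medians were 0.039 and -0.036, so the split was not particular to siMYCN. With median ratios the let-7a counts were 11 of 13 and 17 of 35. All 5 tested of 8 H3K9 demethylases, of which KDM4B had 0.24 ± 0.12 and KDM7A 0.42 ± 0.22 (limma SE), were above 0, and all 3 tested H3K9 methyltransferases were below 0, EHMT1 at -0.010 and the SUV39H genes further. Of the untested H3K9 demethylases KDM4D was lower, at -0.80 with let-7a and -0.64 with miRCon. KDM3A was at 0.52 and -0.065, and KDM4E was at 0 in every library. The other untested demethylases were KDM6A, at -0.13 with let-7a and -1.13 with miRCon, and KDM8, at -0.72 and 0.18. KDM7A, an H3K9 and H3K27 demethylase, had 8.46 and 6.96 TPM-like units in the siMYCN libraries with let-7a and with miRCon, against 5.18 and 5.77 in the siCon libraries with let-7a and with miRCon. The same 5 and 3 genes kept these signs under both rescalings, but this is no check of them. Both rescalings lowered the siMYCN effects by a similar amount. The median over all tested genes went from 0.056 to -0.0033 with median ratios and to 0.00024 without mitochondrial transcripts. Signs below 0 could thus not turn, and the smallest of the 5 effects above 0 was 0.15 (KDM4C), larger than that shift. The split between writers and erasers was noticed in the values, and the difference was not tested. With libraries rescaled by median ratios the median of all 48 was -0.017.

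**Figure D3:**
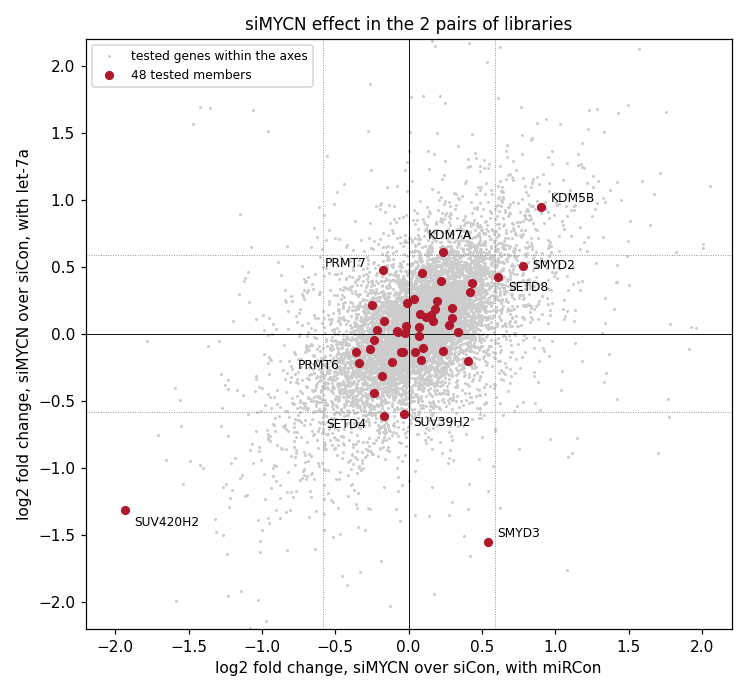
Log2 fold change of siMYCN over siCon with miRCon (horizontal) and with let-7a (vertical) for the 48 tested members (red) over the tested genes that fall within the axes (grey), with dotted lines at 1.5-fold. KDM5B is the only member beyond both lines in the upper right, SUV420H2 the only one in the lower left, and SMYD3 at 0.54 and -1.55 in the lower right.

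With let-7a, 0 members met the rule of size in either direction, where 0.204% of all tested genes were higher and 0.257% lower. Limma called 0 members and 0% of all tested genes at an adjusted p under 0.05, and 1 member, KDM5B, at an unadjusted p under 0.05, where 2.77% of all tested genes were higher and 4.71% lower. Over both pairs, 26 of 48 members were above 0, against 42.3% of all tested genes, with a median of 0.0095 against -0.031. That median was -0.013 with siMYCN and -0.0081 with siCon. In each pair alike, 11 members were above 0, against 22.6% of all tested genes, and 14 below 0, against 33.5%. At the lower limit of 25% up in both pairs 1 member was higher (KDM5B), against 1.47%, and at 20% down 0 were lower, against 2.03%.

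The lowest let-7a effect was that of SUV39H2, with log2 fold changes of -0.75 with siMYCN and -0.19 with siCon, and -0.47 ± 0.20 over both pairs (limma adjusted p = 0.663). SETD6, which methylates the NF-kB subunit RELA, had 7.48 TPM-like units with let-7a and 11.5 with miRCon in siMYCN cells, and 8.26 with let-7a and 9.59 with miRCon in siCon cells. It overlaps CNOT1 on the other strand and has an annotated pseudogene, so its value is uncertain. KMT2C, an H3K4 methyltransferase of enhancers, had 17.7 with let-7a and 22.4 with miRCon in siMYCN cells, and 17.1 with let-7a and 21.3 with miRCon in siCon cells. Its log2 fold changes of -0.33 and -0.30 were alike in both siRNA states, and both let-7a values were under both miRCon values. KMT2C has 0 seed sites in its longest 3' UTR, and annotated pseudogenes of it could share its reads. Several other large H3K4 methyltransferases were also lower in both pairs: KMT2D had -0.16 with siMYCN and -0.14 with siCon, and KMT2A had -0.30 with siMYCN and -0.13 with siCon. The class of H3K4 methyltransferases, in which KMT2E is counted, had 9 tested members. Over both pairs 7 of them were below 0 (6 after rescaling by median ratios), where 57.7% of all tested genes were. Of the 7, KMT2A, KMT2B, KMT2C and KMT2D were below 0 in each pair, and KMT2E, SETD1A and SMYD3 changed sign between the pairs. All 6 tested proteins in the class of other SET domain proteins were also below 0 over both pairs, with a median of -0.067. Among them SETD3 and SETD4 changed sign between the pairs. The FAD-dependent demethylase KDM1B had -0.38 with siMYCN and -0.10 with siCon.

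Above 0, KDM4C, an H3K9 and H3K36 demethylase, had 10.3 TPM-like units with let-7a and 7.03 with miRCon in siMYCN cells, and 8.40 with let-7a and 6.85 with miRCon in siCon cells. The let-7a libraries were both higher, with a combined log2 fold change of 0.38 ± 0.19 (limma adjusted p = 0.686). PRMT2, a coactivator of nuclear receptors, had 14.6 with let-7a and 10.7 with miRCon in siMYCN cells, and 10.8 with let-7a and 9.02 with miRCon in siCon cells, or 0.33 ± 0.17 (limma adjusted p = 0.686). PRMT7, which makes monomethylarginine, had let-7a log2 fold changes of 0.55 with siMYCN and -0.10 with siCon. SUV420H1 had 0.14 with siMYCN and 0.23 with siCon. No overlap between the let-7a and the miRCon libraries was seen for 5 members upward and 10 downward, or 10.4% and 20.8%, against 8.9% and 16.2% of all tested genes.

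**Figure D4:**
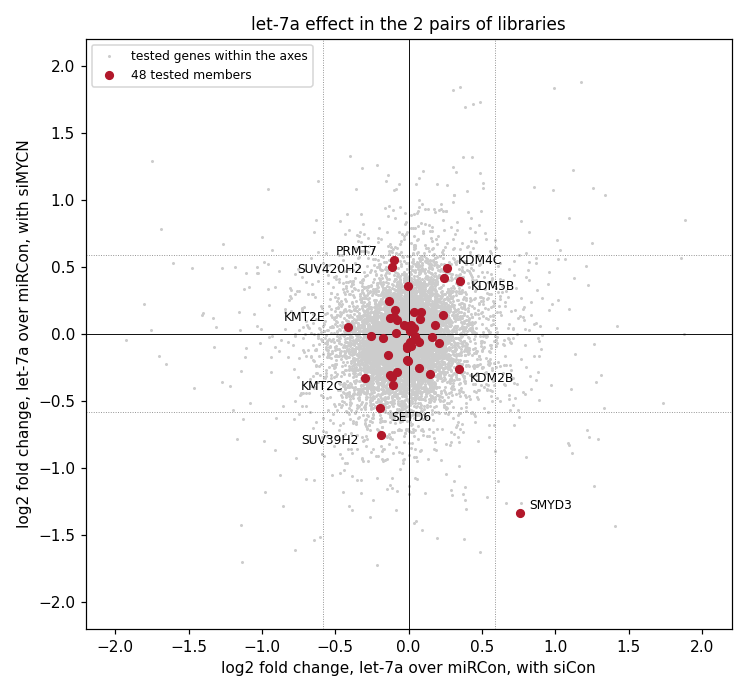
Log2 fold change of let-7a over miRCon with siCon (horizontal) and with siMYCN (vertical) for the 48 tested members (red) over the tested genes that fall within the axes (grey), with dotted lines at 1.5-fold. No member lies beyond both lines on the same side, KDM5B sits at 0.35 and 0.39, and SMYD3 lies at 0.76 and -1.34.

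The let-7a effects of members with and without a seed site lay in the same range. Of the 7 tested members with a site 3 had a let-7a effect below 0 over both pairs, and of the 41 without a site 19 did, with medians of 0.013 and 0.0068. Taking each gene's 3' UTR from the transcript that codes longest, KDM2B held no match, and the medians were -0.039 for 6 members with a site and 0.0095 for 42 without, so the sign of the first turns with the choice of 3' UTR. Over all tested genes, 1120 of 1737 with a site and 4187 of 7441 without one were below 0, with medians of -0.066 and -0.025. Both tested members with an 8mer were below 0 over both pairs, with a median of -0.12. KMT2D had 96.1 TPM-like units with let-7a and 108 with miRCon in siMYCN cells, and 87.3 with let-7a and 96.5 with miRCon in siCon cells, so that it was lower with let-7a in both. DOT1L had 68.6 TPM-like units with let-7a and 81.9 with miRCon in siMYCN cells, and 67.9 with let-7a and 64.7 with miRCon in siCon cells, so its direction differed between the siRNA states. PRMT6, with a 7mer-m8 site, was above 0 in both pairs at 0.16 and 0.036, and ASH1L, an H3K36 methyltransferase, was below 0 in both at -0.013 and -0.26. EZH1, the paralog of EZH2, had 0.12 with siMYCN and -0.099 with siCon.

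EZH2, the catalytic subunit of the H3K27 methyltransferase complex PRC2, was low and uneven. Its level was 5.17 in both siMYCN libraries, against 1.0 in the siCon library with let-7a and 3.74 in the siCon library with miRCon. The let-7a log2 fold change was thus -0.00028 with siMYCN and -1.24 with siCon, and the siMYCN one was 1.62 with let-7a and 0.38 with miRCon. At a mean under 5 it was not tested, and an annotated pseudogene (EZH2P1) could share its reads. KDM6A, the X-linked H3K27 demethylase UTX, had 2.42 and 2.17 in the siMYCN libraries with let-7a and with miRCon, against 2.75 and 5.95 in the siCon libraries with let-7a and with miRCon, so 1 library alone was higher. PRMT9, which methylates a splicing factor, had the same shape, with 3.32 and 3.49 in the siMYCN libraries with let-7a and with miRCon, against 3.73 and 7.11 in the siCon libraries with let-7a and with miRCon. KDM4D, an H3K9 demethylase, had 1.60 and 1.37 in the siMYCN libraries with let-7a and with miRCon, against 3.55 and 2.71 in the siCon libraries with let-7a and with miRCon. It was the only member under the limit to meet the rule of size, downward with siMYCN. The share of all genes under the limit that met it was not counted, so nothing is read from this.

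**Figure D5:**
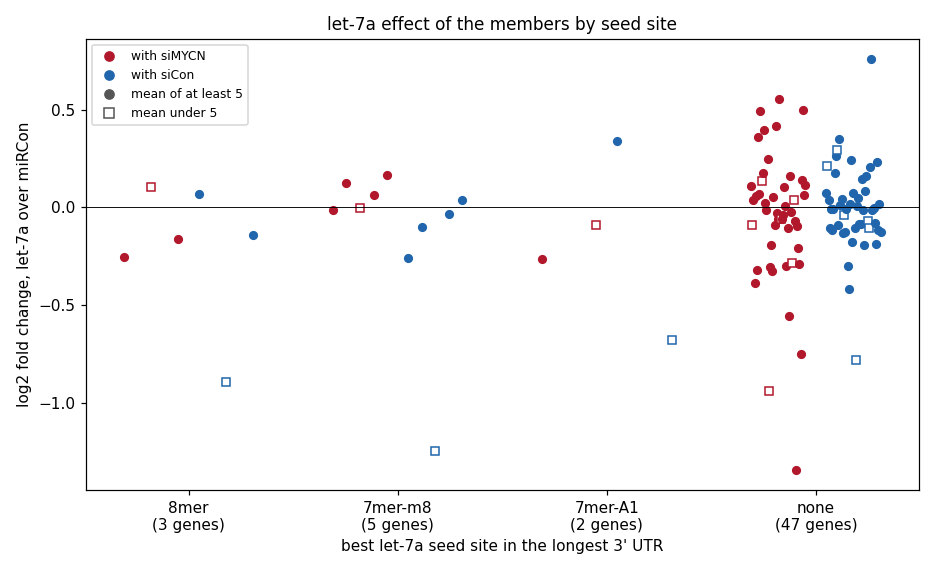
Log2 fold change of let-7a over miRCon for each of the 57 members with a level above 0, grouped by the strongest seed match in the longest annotated 3' UTR, with siMYCN in red and siCon in blue; open squares are members with a mean under 5. The lowest value among members with a site is that of EZH2 with siCon at -1.24, and the values of members without a site spread on both sides of 0.

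The let-7a effects of the 2 siRNA states differed by at least 2-fold for 1 of 48 tested members, SMYD3, where 2.39% of all tested genes did. SMYD3, a SET and MYND domain methyltransferase of H3K4 and of kinases, had 2.89 and 8.84 TPM-like units in the siMYCN libraries with let-7a and with miRCon, against 10.4 and 5.75 in the siCon libraries with let-7a and with miRCon. The library with both treatments was lowest and that with let-7a alone highest. KDM2B, which recruits a Polycomb complex to CpG islands, had a log2 fold change with let-7a of -0.27 with siMYCN and 0.34 with siCon, and KMT2E, an H3K4 reader of the KMT2 family, had 0.051 with siMYCN and -0.42 with siCon. Differences of this kind were larger at low levels over all tested genes. Their median was 0.31 at means from 5 to 10 and 0.12 at means of 50 or more, and for the members in those ranges it was 0.38 and 0.10.

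The proteins that work with these enzymes were counted from lists of 84 genes, of which 69 had a mean of at least 5. None met the rule of size with either treatment (0 in each direction), where 2.85% and 1.61% of all tested genes did with siMYCN. Limma called 1 of them with siMYCN, MTR, the methionine synthase that feeds S-adenosylmethionine supply. MTR fell to 35.7 and 39.4 TPM-like units in the siMYCN libraries with let-7a and with miRCon, against 53.8 and 61.0 in the siCon libraries with let-7a and with miRCon, a log2 fold change of -0.60 ± 0.098 (limma adjusted p = 0.0469). With 1.36% of all tested genes called lower, 1 of 69 is near the background. At an unadjusted p under 0.05, 8 of the 69 were higher and 8 lower with siMYCN, where 17% and 9.4% of all tested genes were, and 0 higher and 4 lower with let-7a, where 2.77% and 4.71% were. The 8 tested PRC2 partners had medians of 0.18 with siMYCN and -0.15 with let-7a, against 0.056 and -0.031 over all tested genes, and 7 of the 8 were below 0 with let-7a, where 57.7% of all tested genes were. The 10 tested partners of the KMT2 and SETD1 enzymes had medians of -0.086 with siMYCN and -0.074 with let-7a, and the 13 other Jumonji proteins and LSD1 partners 0.17 and -0.023. In the remaining lists the siMYCN and let-7a medians were 0.11 and -0.046 (HP1 and H3K9 partners), 0.046 and -0.0046 (PRMT partners), 0.071 and -0.013 (S-adenosylmethionine supply), -0.010 and -0.0019 (DOT1L partners) and 0.16 and 0.029 (other methyltransferases).

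The promoter windows of the members, from 250 bases before to 50 after the RefSeq start (GRCh38.p14), were searched for the E-box CACGTG, the letters bound by MYC family proteins, which read the same on both strands. RefSeq windows were found for 55 members, and 9 held the E-box (16.4%), against 7.43% of all 27305 windows in the table. Among the tested members 7 of 45 held it (15.6%), against 10.8% of 7738 tested genes. These 7 were KMT2D, SMYD4, PRMT3, KDM4B, NSD1, SETD6 and KDM4C, the last with 2 copies, and their median siMYCN effect was 0.055, against 0.0091 for the 38 tested members without it. Over all tested genes the median was 0.059 with the E-box and 0.057 with or without it. The windows of KDM5B and SUV420H2 held 0 copies.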

How the data were processed

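PolyA RNA of 4 libraries, 1 per group, was analysed from a single deposited table of 19837 rows. The values as deposited by the authors are natural log values of a TPM-like quantity plus 1, a base read off library totals: undoing a natural log gave 855811 to 862049 per library, and undoing base 2 at most 147588. The submitters' processing notes list HISAT 0.1.6, Salmon 0.3.2 and GRCh38 but not which step each served. For annotation, filters and the log step, the label texts used here give nothing. The kit named does not state strand, and 28 members are overlapped by a gene on the other strand.

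Rows for vectors (11) were set apart. Genes with a mean of at least 5 (9324) were fitted with limma-trend on log2(value + 1) (limma 3.58.1, R 4.3.3), with siRNA and mimic as additive terms, 1 residual and 4.30 prior degrees of freedom, and Benjamini-Hochberg adjustment over all of them. With no replicated group, non-additivity is the only measure of error behind its p-values. The rule of size was 1.5-fold in both pairs. The fit was also run on simulated data that were additive by construction, with spreads taken from the same fit. Such a run cannot show how the test behaves where effects are not additive. The members, lists and tests were chosen with earlier results of these data known. Named genes were members called, those with the 5 highest or 5 lowest effects of a treatment, those whose pairs differed most (3 in each direction), the highest level in each class, and a few listed enzymes. Names were matched to GENCODE 29 (59 of 59 members, 5 by RefSeq synonym). Python 3.11.15 and pandas 2.3.3 were used. Alternatives were pseudocounts of 0.1 and 5, other filters, scalings, limma settings and fold sizes, and each pair alone. A further marker gene in the neuroblastoma list is not reported here.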

Additional observations from a re-analysis of the deposited data

Results flagged for a closer look

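SMYD3 went opposite ways in the pairs of libraries that make up each treatment's effect. Its siMYCN log2 fold change was -1.55 with let-7a and 0.54 with miRCon, and its let-7a log2 fold change was -1.34 with siMYCN and 0.76 with siCon. Each of these is at least 25% up or 20% down, a limit chosen for this purpose with the data in view, and no other tested member moved that far in opposite directions. With 1 library per group the difference was not tested. The mean level of SMYD3 was 6.97, and of all tested genes with a mean from 5 to 10, 7.64% differed by at least 2-fold between the pairs.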

How the results depend on the processing

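No paired analysis was possible because the labels give no replicate numbers and each group holds 1 library, and the pairs compared differ by treatment and are not replicate blocks; for the same reason no library could be left out with a test. KDM5B was above 0 with siMYCN, and SUV420H2 below 0, in each alternative run on them. By size, members higher with siMYCN numbered 4 at 25% up and 0 at 2-fold, and those lower numbered 2 with no filter and 0 at a mean of at least 20. With let-7a, 1 member was higher at 25% up. Limma called 0 members higher and 0 lower with siMYCN with no filter and without a trend, 2 higher and 0 lower at a mean of at least 20 (a limit that KDM5B reached only through its siMYCN libraries), 2 higher after rescaling by median ratios, and 0 lower with a pseudocount of 0.1. Over all genes it called 0 higher and 0 lower with siMYCN with no filter and without a trend, 310 and 196 at a mean of at least 20, 342 and 408 after rescaling by median ratios, and 260 lower after rescaling without mitochondrial transcripts. The median siMYCN effect of the members was 0.11 at a mean of at least 20, -0.017 with median ratios and -0.014 without mitochondrial transcripts. That of let-7a was 0 with no filter, 0.041 with median ratios, 0.017 without mitochondrial transcripts, -0.0081 with siCon alone and -0.013 with siMYCN alone. SETD6 had a siMYCN effect of -0.00086 with median ratios, and WHSC1L1 a let-7a effect of 0.030 with median ratios and 0.0039 without mitochondrial transcripts, each turned from the reported sign. Fewer genes were tested at the stricter filter; the other causes were not tested. Depth is unknown, so it cannot be said which low members were too shallow to compare.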

Other observations

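The summed level of the 18 demethylase genes was 541 and 534 TPM-like units in the siMYCN libraries with let-7a and with miRCon, against 482 and 471 in the siCon libraries with let-7a and with miRCon. That of the 41 methyltransferases and related SET domain genes was 1257 and 1302 in the siMYCN libraries with let-7a and with miRCon, against 1232 and 1261 in the siCon libraries with let-7a and with miRCon. KDM1A made up the largest single part of the demethylase sum. The H3K4 demethylases of the KDM5 family had 127 and 114 in the siMYCN libraries with let-7a and with miRCon. In the siCon libraries with let-7a and with miRCon they had 101 and 98.7. Within that sum, in the same order of libraries, KDM5B had 34.9 and 26.3, against 17.6 and 13.6. KDM5A had 37.2 and 32.8, against 34.7 and 37.1, so the sum does not describe each gene of the family. The H3K4 methyltransferases had 392 and 429 in the siMYCN libraries with let-7a and with miRCon, against 383 and 400 in the siCon libraries with let-7a and with miRCon. These sums have no error, because each group is 1 library. They are also not rescaled, and mitochondrial transcripts made up less of the siMYCN libraries. After rescaling without those transcripts, the median siMYCN effect was -0.072 for the 35 tested methyltransferases and related genes, with 13 above 0. For the 13 tested demethylases it was 0.11, with 11 above 0. No direction is therefore read from the methyltransferase sums.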
